A study of Homo sapiens with 6 samples.

Results

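The genes described here encode receptors through which myeloma cells attach to the bone marrow and find their way into it. They were taken by name from the expression table and are 10 of its 58735 genes: ITGA4, ITGB1, ITGB7, ITGAL, ITGB2, CD44, CXCR4, ICAM1, SELPLG and NCAM1. RNA-seq was performed on MM.1S, an established human multiple myeloma cell line, in 3 control libraries (si-NC, a negative control siRNA) and 3 PRMT1 knockdown libraries (PRMT1 KD, si-PRMT1), with siRNA at 100 nM and collection after 72 h. All libraries come from 1 cell line transfected in the same way and differ by the siRNA. The study's methods call the replicates biological but dependent, and neither they nor the labels say whether these libraries came from separate cultures, so p-values measure the spread between these libraries. MM.1S is 1 line, which limits it as a model of myeloma cells in the marrow.

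Integrins are pairs of an alpha and a beta chain that sit in the membrane and bind ligands only after signals from inside the cell have switched them on. ITGA4 with ITGB1 forms VLA-4, which binds VCAM1 and fibronectin on marrow stroma, and ITGA4 with ITGB7 binds MADCAM1. ITGAL with ITGB2 forms LFA-1, the leukocyte integrin that binds ICAM1 and its relatives. CXCR4 is the receptor for the stromal chemokine CXCL12, CD44 binds hyaluronan, SELPLG (PSGL-1) is the ligand that selectins capture on rolling leukocytes, and NCAM1 (CD56) is an adhesion molecule often found on malignant plasma cells. PRMT1 is the main enzyme that places asymmetric dimethyl marks on arginines of proteins.

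The study lists 3 siRNAs against PRMT1, and which of them was used for the sequenced cells is not named. Their target sequences are shown because the bases paired with the siRNA seed, in capitals (target bases 12 to 18), are the stretch through which an siRNA can also act on other transcripts. The sites, whose positions on the plus strand of GRCh38 stand beside the names, occur in 11, 4 and 4 of the 11 coding transcripts of PRMT1 in GENCODE 29.
si-PRMT1-1 (chr19:49681947-49681965): gcaactccatgTTTCATAa
si-PRMT1-2 (chr19:49686635-49686653): agacggtgttcTACATGGa
si-PRMT1-3 (chr19:49688178-49688196): ccatcgacctgGACTTCAa
The capital letters of the 3 siRNAs were found in an annotated 3′ UTR of 22.8%, 10.1% and 14.0% of the 10054 tested genes that have one, searched on the transcript strand. The annotated 3′ UTRs of ITGA4, ITGB1, ITGAL, ITGB2, ICAM1 and SELPLG held a match to none of the 3. CXCR4 held the si-PRMT1-1 letters in 2 of 2 annotated 3′ UTRs and CD44 in 2 of 10. These matches describe letters in a window and are not measured sites.

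Expression was given as FPKM (fragments on a gene, scaled by gene length and library size), and between 14439217 and 16465026 reads on genes stood behind each library. Multiplied by gene length, every value above 0 was a whole multiple of what 1 read is worth in that library, so read numbers could be worked back. Knockdown was checked first. PRMT1 stood at 61.7, 62.8 and 58.9 FPKM in control cells and at 13.3, 14.0 and 12.5 FPKM after knockdown, a difference of -2.13 on the log2 scale (adjusted p = 2.77e-05 by limma). All 10 plasma cell markers were above the filter on low values, with JCHAIN, the joining chain of polymeric antibodies, at 496 ± 39.4 FPKM in control (SD, n = 3). Markers of stromal, endothelial and myeloid cells summed to at most 0.121, 0.341 and 0.726 FPKM in any library, and none of them passed the filter.

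The levels of the 10 receptors spanned the table from high to 0. FPKM is scaled by gene length, so the listed levels were set side by side between genes. Some genes that cells in general use were also listed at or near 0, so the low end of the order describes listed values only. ICAM1 had the highest mean over the 6 libraries at 75.9 FPKM, followed by ITGA4 at 69.9, ITGB1 at 41.3, SELPLG at 28.2, ITGB2 at 5.49 and ITGAL at 2.76 FPKM. ICAM1 and ITGA4 did not differ beyond their spread, since ICAM1 was the higher in 4 of 6 libraries. Each later neighbour in that order, from ITGA4 to ITGAL, was separated from the next in all 6 libraries. ITGB7 and NCAM1 stood far below at 0.0408 and 0.0312 FPKM and overlapped each other. CD44 and CXCR4 were listed at 0 in every library. The plot of receptor levels by library shows this order.

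**Figure D1:**
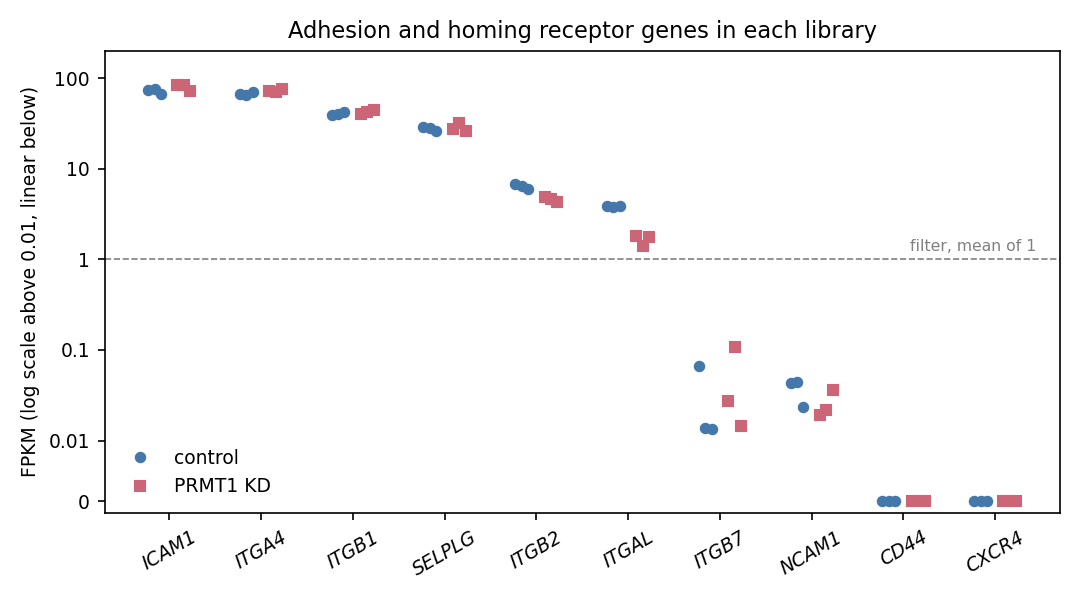
FPKM of the 10 receptor genes (y axis, logarithmic above 0.01 and linear below) in each control library (circles) and PRMT1 KD library (squares), ordered by mean level. ICAM1, ITGA4, ITGB1 and SELPLG lie above 20 FPKM in both groups, ITGAL and ITGB2 separate by group, and CD44 and CXCR4 are at 0 in all 6 libraries.

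The question here was whether these receptors change when PRMT1 is reduced. Differences were tested with limma on log2(FPKM + 1) over the 13585 genes with a mean of at least 1 FPKM, and 6 of the 10 receptors passed that filter. ITGAL and ITGB2, the chains of LFA-1, fell, so 2 of the 6 were past an adjusted p of 0.05, both lower, against 2.05% of all genes tested in either direction and 0.986% in the lower direction. The other 4 receptors tested, ITGA4, ITGB1, ICAM1 and SELPLG, did not pass. The median log2 fold change of the 6 was 0.06, beside 0.01 over all genes tested. The groups did not overlap for 2 of the 6, ITGAL and ITGB2, against 25.9% of all genes tested.

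**Figure D2:**
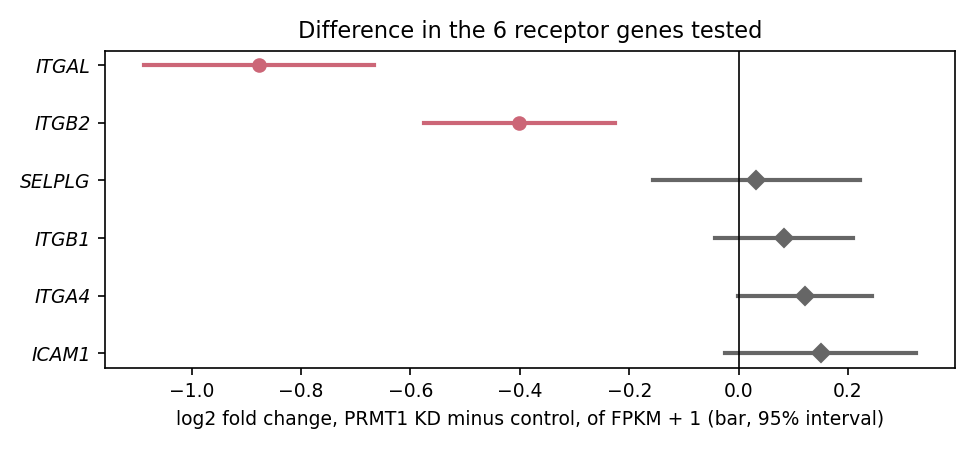
Log2 fold change (PRMT1 KD minus control, on the FPKM + 1 scale, x axis) of the 6 receptor genes tested, with 95% intervals from limma as bars. Circles mark ITGAL at -0.88 and ITGB2 at -0.40, which passed an adjusted p of 0.05, and diamonds mark the 4 genes that did not and whose intervals include 0.

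ITGAL encodes the alpha L chain, which carries the ligand-binding domain of LFA-1, and lies at chr16:30472658-30523185 on the plus strand (ENSG00000005844). It stood at 3.89, 3.82 and 3.87 FPKM in control cells and at 1.80, 1.40 and 1.77 FPKM after knockdown. Every knockdown library lay below every control library. The mean moved from 3.86 ± 0.0348 to 1.65 ± 0.223 FPKM (SD, n = 3 each), which was 42.8% of control. The log2 fold change was -0.88 (standard error 0.0889, 95% interval -1.09 to -0.67), with an adjusted p of 0.0144 from limma with Benjamini-Hochberg adjustment. The pseudocount of 1 shrinks a change at this level, and the same fit with a pseudocount of 0.1 gave -1.19. ITGAL had the 46th lowest log2 fold change of the 13585 genes and rested on 130 to 417 reads per library. By the exact permutation test (two-sided) p was 0.1, which is as small as 3 against 3 can give. Without control replicate 1 or 2 its limma adjusted p was 0.0960 and 0.0751.

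ITGB2 encodes the beta 2 chain, the shared partner of the leukocyte alpha chains ITGAL, ITGAM, ITGAX and ITGAD, and lies at chr21:44885953-44931989 on the minus strand (ENSG00000160255). It stood at 6.84, 6.38 and 5.93 FPKM in control cells and at 4.86, 4.65 and 4.25 FPKM after knockdown. The groups again did not overlap, although the gap between the lowest control and the highest knockdown library was small beside that of ITGAL. The mean fell from 6.38 ± 0.456 to 4.59 ± 0.312 FPKM (SD, n = 3 each), 71.9% of control. The log2 fold change was -0.40 (standard error 0.0739, 95% interval -0.58 to -0.23, limma adjusted p = 0.0491). This call sat at the threshold: leaving out any of the 6 libraries gave an adjusted p between 0.0761 and 0.187, with control replicate 1 the highest.

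Within LFA-1, ITGAL stood lower relative to ITGB2 in every knockdown library. The level of ITGAL per unit of ITGB2 was 0.569, 0.599 and 0.653 in control cells and 0.369, 0.300 and 0.415 after knockdown. No knockdown library reached the lowest control ratio. On the log2(FPKM + 1) scale the ratio differed by -0.48 between the groups, with p = 0.1 in the exact permutation test, again its lower limit. ITGB2 was the more abundant chain in all 6 libraries. Both genes share exonic bases with transcripts of the opposite strand, 9.56% of ITGAL with AC116348.2 and AC116348.3 and 4.46% of ITGB2 with ITGB2-AS1. These antisense genes were at most 0.215 and 0.347 FPKM in any library, and whether reads were counted by strand is not given in the sources used here.

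**Figure D3:**
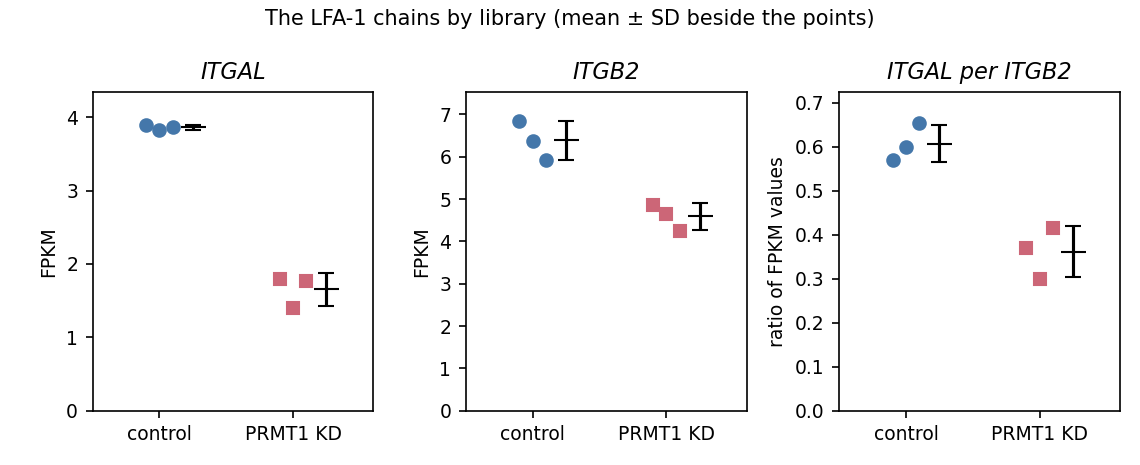
FPKM of ITGAL and ITGB2 and the ratio of the 2 (y axes from 0) in the control libraries (circles) and PRMT1 KD libraries (squares), with the mean ± SD of 3 libraries beside the points. ITGAL falls to 42.8% of the control mean and ITGB2 to 71.9%, and the ratio moves from 0.607 to 0.362.

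Leukocytes other than plasma cells also carry LFA-1, so their markers were set beside these genes. In bulk RNA, fewer cells of a type and less RNA per cell cannot be told apart. The 6 T cell markers summed to 72.7 to 78.1 FPKM in control and 80.9 to 83.0 FPKM in PRMT1 KD libraries, almost all of it CD4 and CD3E, while TRAC, the T cell receptor alpha constant gene, was at most 0.186 FPKM and CD8A was listed at 0. Of these markers 3 of 6 were tested and 0 passed, with 1 at an unadjusted p under 0.05 in limma and 0 by voom on the reads worked back. Such an unadjusted p was found for 2655 of all 13585 genes. CD3D was 0.845, 0.734 and 0.456 FPKM in control and 0.326, 0 and 0.0707 FPKM in knockdown libraries, below the filter. The 5 natural killer cell markers summed to 3.25 to 3.83 FPKM in control and 3.07 to 4.41 FPKM in knockdown libraries, and 2 of 5 were tested, GNLY and NKG7, with adjusted p of 0.423 and 0.263 from limma. The 6 mature B cell markers summed to 2.77 to 3.45 and 1.98 to 2.80 FPKM, with FCER2 at 1.71 ± 0.138 against 1.03 ± 0.126 FPKM (SD, n = 3 each, limma adjusted p = 0.107). The part of the marker levels in the fall of ITGAL and ITGB2 was not tested.

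The chains of VLA-4 were high and did not pass the test. ITGA4, the alpha 4 chain, at chr2:181457202-181536187 on the plus strand (ENSG00000115232), was 65.9, 64.3 and 70.6 FPKM in control and 72.3, 70.5 and 75.9 FPKM in PRMT1 KD libraries. The groups touched, with control replicate 3 above knockdown replicate 2. Its log2 fold change was 0.12 (95% interval -0.0018 to 0.24, limma adjusted p = 0.262). ITGB1, the beta 1 chain shared by many integrins, at chr10:32900319-33005792 on the minus strand (ENSG00000150093), was 38.7, 39.7 and 41.8 FPKM in control and 40.6, 42.1 and 44.8 FPKM in knockdown libraries. These ranges overlapped, and the log2 fold change was 0.08 (95% interval -0.04 to 0.21, limma adjusted p = 0.447). The intervals leave room for a rise to at most 1.18-fold in ITGA4 and 1.16-fold in ITGB1 on the FPKM + 1 scale.

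ITGB7, the beta 7 chain, at chr12:53191318-53207307 on the minus strand (ENSG00000139626), was 0.0674, 0.0138 and 0.0135 FPKM in control and 0.0270, 0.109 and 0.0147 FPKM in knockdown libraries, from 1 to 7 reads each. The highest and lowest libraries were spread over both groups, and the gene was not tested across genes. ITGB7 shares 42.1% of its exonic bases with ZNF740 on the opposite strand, which stood at 7.42 to 7.63 FPKM. The part of this overlap in its low value was not tested. The ratio of ITGB1 plus ITGB7 to ITGA4 differed by -0.04 on the log2 scale between the groups (exact two-sided permutation test p = 0.5), and ITGB1 per ITGA4 was 0.588 to 0.618 in control and 0.562 to 0.597 in knockdown libraries. The ratio of ITGB7 to ITGB1 differed by -0.06 (exact permutation p = 0.5), a difference that turned to 0.08 with a pseudocount of 0.1.

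ICAM1, an inducible ligand of LFA-1 carried on the same cells, lies at chr19:10270835-10286615 on the plus strand (ENSG00000090339). It was 73.8, 75.0 and 66.9 FPKM in control and 84.7, 82.8 and 72.4 FPKM in PRMT1 KD libraries. The lowest library of each group was replicate 3, and the knockdown value there fell inside the control range. The log2 fold change was 0.15 (95% interval -0.02 to 0.32, limma adjusted p = 0.321). ICAM1 shares 23.6% of its exonic bases with antisense genes that were at most 0.094 FPKM. SELPLG, at chr12:108622277-108633959 on the minus strand (ENSG00000110876), was 28.9, 28.4 and 26.2 FPKM in control and 27.6, 31.9 and 26.2 FPKM in knockdown libraries. Its groups were interleaved, with a log2 fold change of 0.03 (95% interval -0.16 to 0.22, limma adjusted p = 0.866) that changed sign without control replicate 3 (-0.0092) or PRMT1 KD replicate 2 (-0.05).

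The remaining 4 receptors fell under the filter, 2 with low values and 2 with values of 0. NCAM1, at chr11:112961247-113278436 on the plus strand (ENSG00000149294), was 0.0427, 0.0438 and 0.0238 FPKM in control and 0.0190, 0.0218 and 0.0361 FPKM in PRMT1 KD libraries, from 4 to 9 reads each. The groups overlapped (exact permutation p = 0.2). CXCR4, at chr2:136114349-136118165 on the minus strand (ENSG00000121966), and CD44, at chr11:35138870-35232402 on the plus strand (ENSG00000026508), had 0 reads in each of the 6 libraries. A count of 0 allows up to 3 reads, which is 0.0815 to 0.0937 FPKM for CXCR4 and 0.0181 to 0.0208 FPKM for CD44, covering counting error only. Values of 0 were not read as absence, because genes that cells in general use were also low in this table: EIF4G3, a translation initiation factor, was listed at 0 in all 6 libraries, and HIF1A, the oxygen-regulated factor, was at most 0.0588 FPKM. EIF4G3 and CXCR4 share no exonic base with another gene, and CD44 shares 0.84%. EIF4G3 and HIF1A were picked after their values were seen.

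Among the 21 other integrin chains, 7 were tested and 0 passed in limma, with a median log2 fold change of -0.0032. ITGAD alone had an unadjusted p under 0.05, and it alone was past the adjusted threshold in voom, limma's method for read counts, run on the reads worked back. Over all 13585 genes, 2655 had such an unadjusted p and voom called 927. ITGAV, the alpha V chain, was 8.49 ± 0.899 FPKM in control and 8.53 ± 0.956 FPKM in PRMT1 KD (SD, n = 3 each). ITGAD, the alpha D partner of ITGB2, was 8.16, 7.90 and 8.97 FPKM in control and 6.89, 6.79 and 6.40 FPKM in knockdown libraries, with a log2 fold change of -0.28 that missed the threshold (limma adjusted p = 0.0819). Its groups did not overlap. The remaining alpha partners of ITGB2, ITGAM and ITGAX, were at most 0.628 and 0.222 FPKM and were not tested. ITGB4, the beta chain of the laminin receptor, was 5.10 ± 0.310 and 5.09 ± 0.420 FPKM, and ITGA7 was 1.90 ± 0.266 and 1.54 ± 0.195 FPKM (adjusted p = 0.413).

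Of 40 genes that activate integrins or tie them to the cytoskeleton, 27 were tested and 0 passed in limma, and their median log2 fold change was -0.02. TLN1, the talin that switches integrins on from inside, was 33.9 ± 3.60 FPKM in control and 33.3 ± 2.73 FPKM in PRMT1 KD (SD, n = 3 each). The lowest log2 fold changes were those of PTK2B, a focal adhesion kinase, at -0.26 (limma adjusted p = 0.136), and RAP1A, a small GTPase that activates integrins, also at -0.26 (adjusted p = 0.156). The adaptors CRKL and CIB1 had log2 fold changes of 0.05 and 0.02. At an unadjusted p under 0.05 from limma the count was 6 of the 27, against 2655 of all 13585 genes. Voom called 3, against 927 of all genes, namely PTK2B, RAP1A and the actin crosslinker FLNA.

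Of 22 ligands and counter-receptors, 4 were tested and 0 passed in limma, with 0 at an unadjusted p under 0.05 and 0 by voom. Of the ligands of VLA-4, VCAM1 was listed at no more than 0.0344 FPKM, and FN1, fibronectin, was 0.186 to 0.283 FPKM in control and 0.189 to 0.273 FPKM in PRMT1 KD libraries. MADCAM1, the ligand of the alpha 4 beta 7 integrin, was 4.31 ± 0.189 FPKM in control and 4.12 ± 0.594 FPKM in knockdown cells (SD, n = 3 each). Among ligands of LFA-1, ICAM2 was 4.11 ± 0.390 and 4.48 ± 0.307 FPKM (log2 fold change 0.10, limma adjusted p = 0.532), while ICAM3 was at most 0.147 FPKM. CXCL12, the ligand of CXCR4, was listed at 0 in every library. HMGB1, a nuclear protein that signals when released, was 51.1 ± 2.49 and 57.0 ± 5.05 FPKM, and SRGN, a proteoglycan that binds CD44, was 5.86 ± 0.156 and 6.41 ± 1.01 FPKM.

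The other chemokine and chemoattractant receptors were mostly below the filter, with 1 of 26 tested. That gene was S1PR2, a sphingosine 1-phosphate receptor, at 10.1 ± 0.249 FPKM in control and 8.41 ± 0.577 FPKM in PRMT1 KD (SD, n = 3 each), a difference of -0.23 on the log2 scale (adjusted p = 0.106 by limma). Its unadjusted p was under 0.05, and voom did not call it. ACKR3, the second receptor of CXCL12, was 1.10, 0.961 and 0.831 FPKM in control and 0.644, 0.431 and 0.494 FPKM in knockdown libraries. Its groups did not overlap, beside 25.9% of all genes tested, and it rested on 14 to 41 reads per library. Its mean fell under the filter and it was not tested. CXCR6, also under the filter and not tested, was higher without overlap, on 19 to 40 reads. It was 0.385, 0.362 and 0.305 FPKM in control and 0.418, 0.534 and 0.697 FPKM in knockdown libraries. ACKR3 and CXCR6 were named after their values were seen.

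Most genes that act downstream of CXCR4 were above the filter, although the receptor itself was listed at 0. In this list of 39, 8 genes were below 1 FPKM in every library, 2 of them with 0 reads. Of 39, 31 were tested, 1 was higher and 0 lower past the threshold in limma, beside 2.05% of all genes tested, and the median log2 fold change was 0.04. At an unadjusted p under 0.05 the count was 11 of the 31, against 2655 of all 13585 genes. Voom called 6, against 927 of all genes, with ARRB2, RAC1, ELMO1, PIK3CA and VAV1 higher and RGS1 lower. The gene that rose was ARRB2, an arrestin that uncouples and internalises such receptors, from 16.0 ± 0.609 to 20.1 ± 0.718 FPKM (SD, n = 3 each, log2 fold change 0.31, limma adjusted p = 0.0405). Leaving out any 1 of the 6 libraries raised that adjusted p to between 0.0798 and 0.173. RAC1, a GTPase of cell movement, was 41.0, 39.6 and 36.1 FPKM in control and 47.5, 48.2 and 51.9 FPKM in PRMT1 KD libraries, a log2 fold change of 0.33 just outside the threshold (adjusted p = 0.0503). RGS1, which damps signals of such receptors, was 67.8 ± 7.26 and 54.2 ± 6.13 FPKM (adjusted p = 0.147 by limma, 0.0234 by voom). RHOA and GNB1, the most and the next most abundant genes of the list, had log2 fold changes of 0.11 and -0.18.

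**Figure D4:**
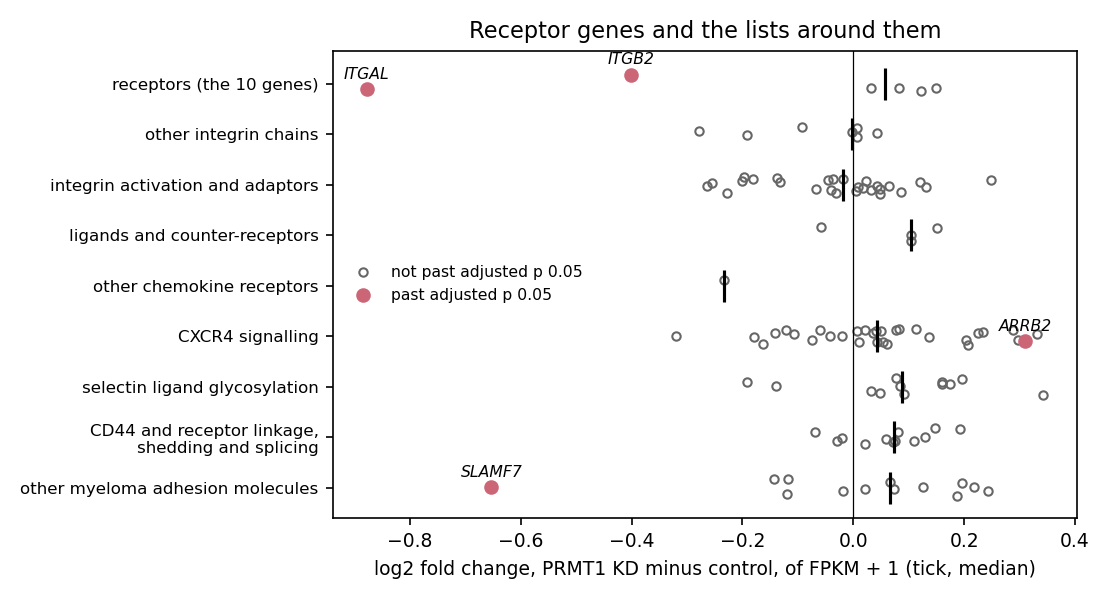
Log2 fold change (PRMT1 KD minus control, on the FPKM + 1 scale, x axis) of each tested gene among the 10 receptors and the 8 surrounding gene lists (rows), with a tick at each median and vertical scatter for legibility only. Filled points passed an adjusted p of 0.05 and are ITGAL, ITGB2, SLAMF7 and ARRB2, and the list medians lie between -0.23, a single gene, and 0.10.

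PSGL-1 binds selectins only after glycosyltransferases have built the right sugars on it. Of 24 genes that help to make selectin ligands, not all of them glycosyltransferases, 12 were tested and 0 passed in limma. The median log2 fold change was 0.09. The other 12 were below 1 FPKM in every library, 2 of them with 0 reads, so the values cover only part of this list. At an unadjusted p under 0.05 the count was 3, against 2655 of all 13585 genes. Voom called 1, C1GALT1, against 927 of all genes. C1GALT1, which makes the core of O-linked sugars, had a log2 fold change of 0.34 (5.12 ± 0.657 to 6.78 ± 1.06 FPKM, SD, n = 3 each, limma adjusted p = 0.188). GALNT1 and GALNT2, which start those sugars, had log2 fold changes of 0.20 and 0.16, and ST3GAL1, which caps them, of -0.14. Of 18 genes that link CD44 and like receptors to actin, act on their shedding or splice CD44, 12 were tested. Of these, 0 passed in limma, 0 had an unadjusted p under 0.05 and voom called 0. EZR, which ties CD44 to actin, was 64.3 ± 4.65 and 70.3 ± 1.39 FPKM, and KHDRBS1, an RNA-binding protein that acts on CD44 splicing, was 77.0 ± 2.27 and 81.5 ± 2.03 FPKM. In this list TIMP1, RDX and ADAM8 had log2 fold changes of 0.02, 0.15 and 0.19.

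Among 28 other adhesion molecules of myeloma cells, 13 were tested and 1 fell, beside 0.986% of all genes tested. At an unadjusted p under 0.05 from limma the count was 5, against 2655 of all 13585 genes. Voom called 2, against 927 of all genes. These were SLAMF7, lower, and CADM1, a cell adhesion molecule, higher (voom log2 fold change 0.23, adjusted p = 0.0278, against 0.22 and 0.0861 in limma). SLAMF7, a plasma cell surface receptor that binds its own kind on neighbouring cells, was 37.8, 39.0 and 37.1 FPKM in control and 23.4, 22.9 and 25.1 FPKM in PRMT1 KD libraries. The groups were wide apart, and differed by -0.65 on the log2 scale (standard error 0.0505, adjusted p = 0.00515 by limma), and the adjusted p stayed at 0.0485 or lower with any 1 library left out. It is also 1 of the 10 plasma cell markers and the 1 of them that passed. SDC1 (CD138), the syndecan that marks plasma cells, was 51.4 ± 3.79 and 50.8 ± 4.57 FPKM (SD, n = 3 each). CD63 and BSG, the most abundant of the list, had log2 fold changes of -0.12 and 0.07. CD38 was 1.92 ± 0.148 and 2.45 ± 0.151 FPKM, a log2 fold change of 0.24 (adjusted p = 0.193).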

How the data were processed

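RNA-seq of MM.1S cells was analysed in 3 control and 3 PRMT1 KD libraries, grouped by the sample labels. Gene-level FPKM values are what the authors deposited, and the submitters' processing notes name featureCounts 1.5.0-p3 and hg38. The aligner and the strand setting are not given in the sources used here. Every value above 0 gave a whole read number (tolerance 0.01), and 58735 of 58735 genes had the same coordinates in GENCODE 29 (GRCh38).

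The test was limma 3.58.1 (R 4.3.3, trended empirical Bayes, two-sided) on log2(FPKM + 1), for the 13585 genes whose mean reached 1 FPKM, with Benjamini-Hochberg adjustment over all of them. A pseudocount understates changes of low genes. Single ratios and members under the filter used an exact permutation test. The fit was run on simulated data with changes larger than those of ITGB2 and ARRB2, so it does not bear on calls of that size. Columns of the libraries were matched by name. Replicates of a group differed beyond sampling noise (chi-square of reads per degree of freedom 2.60 to 8.63 over the genes tested).

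The 10 members and the gene lists were chosen with earlier results of these data known. Named genes were all members, PRMT1, the main ligands and, from each list, genes past the threshold, the 3 most abundant and the 2 with the largest absolute log2 fold change. Marker lists were plasma, mature B, T, natural killer, myeloid, stromal and endothelial cells. Exceptions are stated where they are named, ITGAM, ITGAX, TRAC, CD8A and CD3D were also named for their roles, and FLNA, ELMO1, PIK3CA, VAV1 and CADM1 because voom called them. Alternatives were pseudocount 0.1, no filter, a filter of 5 FPKM, median scaling, TPM, no trend, the replicate block, each library left out, limma's voom on the reads worked back, and unadjusted p. Target sequences of the siRNAs came from the study's supplement and were matched to GENCODE 29 transcripts.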

Additional observations from a re-analysis of the deposited data

How the results depend on the processing

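Some alternatives could not change a result. Unadjusted p passes any gene that passed after adjustment, so it is no check on such a call. No filter, the filter of 5 FPKM, no trend, the replicate block and unadjusted p leave a gene's log2 fold change as it was. Direction could not turn in these. With them counted, the fall of ITGAL kept its direction in 14 alternatives and passed the threshold in 11 of them, with log2 fold changes from -1.22 (voom) to -0.81. It was not past it with no filter (limma adjusted p = 0.0536), which tests more genes, or without control replicate 1 or 2. With a filter of 5 FPKM ITGAL was not tested. ITGB2 kept its direction in 15 alternatives and its call in 6, and was lost with no filter (adjusted p = 0.132), TPM (0.0546), no trend (0.0787) and each library left out. The count of receptors past the threshold was therefore 0 with no filter, 1 with a filter of 5 FPKM, 1 with TPM, 1 with no trend, and 0 to 1 with a library left out. The count of all genes past it was 279, and was 35 with no filter, 473 with a filter of 5 FPKM, 43 with no trend, 927 with voom, 2655 at an unadjusted p under 0.05 and 13 to 94 with a library left out. ITGB7 and NCAM1 rested on at most 7 and 9 reads in any library, which limits what can be said of a change in either.

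PRMT1 passed in all 15 alternatives, with log2 fold changes from -2.21 to -2.09. The median log2 fold change of the receptors tested was 0.0205 to 0.0828 over all alternatives. The ratio of ITGB7 to ITGB1 turned to 0.0786 with a pseudocount of 0.1 and ranged from -0.10 to 0.0042 with a library left out, where SELPLG ranged from -0.048 to 0.0912. Over 38 further genes named, 497 of 563 values kept direction and call, 23 in 8 genes changed sign, all in genes not past the threshold. With median scaling CIB1 was -0.0036 and ITGAV -0.0130, and with TPM ITGB4 was 0.0152, SDC1 0.0017 and TLN1 0.00028. With a library left out, CIB1 ranged from -0.0436 to 0.0692, ITGAV from -0.0753 to 0.0819, ITGB4 from -0.0461 to 0.0523, MADCAM1 from -0.151 to 0.00077, SDC1 from -0.0757 to 0.0576, SRGN from -0.0059 to 0.166, TIMP1 from -0.0102 to 0.0598 and TLN1 from -0.108 to 0.0479.

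Same-numbered libraries deviated from their group means with correlations of 0.02, 0.0631 and 0.101. These were weak, but every library correlated best with its own number. Whether the numbers pair the samples is therefore not settled by them. With the replicate block, 2 receptors and 204 genes were past the threshold. ITGA4, ITGB1 and ICAM1 were higher in each knockdown library than in the control library of the same number. With the block they stayed outside the threshold (limma adjusted p = 0.0960, 0.185 and 0.0829). ARRB2 was not past it with the block (limma adjusted p = 0.0598) and RGS1 was (0.0437), as it also was with voom (0.0234). ARRB2 was also not past it with no filter (0.0968), median scaling (0.0506) or no trend (0.0802), and RAC1 was past it with a filter of 5 FPKM (0.0247), TPM (0.0310) and voom (0.0058).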
